A study of Drosophila melanogaster with 12 samples.

Results

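The Dpr and DIP families are cell-surface immunoglobulin proteins of Drosophila neurons, and 32 genes encode them among the 13922 protein-coding genes on the main chromosome arms. They were taken by FlyBase symbol, as 21 Dpr genes (dpr1 to dpr21) and 11 DIP genes (DIP-alpha to DIP-lambda). Each symbol matched 1 FlyBase identifier, and none of the 32 identifiers was newer than those in the files.

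Dpr proteins are named after defective proboscis extension response, the phenotype of the founding member dpr1 in salt aversion. DIP proteins (Dpr-interacting proteins) are their binding partners on other cells. Each DIP binds a subset of Dprs, and different neurons carry different combinations. In the optic lobe and at the neuromuscular junction these contacts are known for roles in synaptic partner matching and in the survival of the matched neurons.

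The tissue was the larval central nervous system of Drosophila melanogaster at the wandering stage of the last instar. Targeted DamID, in which a bacterial adenine methylase marks GATC sites near the protein it is fused to, was run on 2 samples each of Dam alone, Dam-Sd and Dam-Nerfin-1. Sd (Scalloped) is the TEAD transcription factor of the fly. Nerfin-1 is a nuclear zinc-finger protein of young neurons. All DamID animals carried tubGal80TS, GMR31H08-Gal4 and UAS-GFP with a pUAST-LT3-Dam transgene at attP2, without or with the Sd or Nerfin-1 fusion. They were held at 18°C for 4 days after egg laying at 25°C and moved to 29°C for the last 24 hours. The cells in which GMR31H08-Gal4 is active are not given in the labels. For open chromatin (ATAC-seq, 3 samples) and expression (RNA-seq, 3 samples), GFP+ cells were sorted from the CNS of P[nerfin-1.GFP-NLS.SV-40] larvae, labelled iA, reared at 25°C. The RNA samples were pools of sorts from several days, with 180 to 330 ng of RNA each. Occupancy and expression were thus measured in cells selected by different transgenes and kept at different temperatures.

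The DamID and ATAC data were single peak lists per group with no score and no replicate values, so counts over genes carry no test over samples. The lists held 4064 Sd, 3649 Nerfin-1 and 35494 ATAC peaks. The RNA table held read counts for 5135 genes that the authors kept as expressed, with 43555895, 44657928 and 57468071 counts in libraries S1, S2 and S3. RNA levels are given as CPM, the reads of a gene per 1000000 reads of all listed genes in that library. The sort was checked on markers: 5 of 5 neuronal genes (elav, nSyb, brp, fne and Syt1) were listed, with a summed level of 6312 to 6642 CPM across libraries. Of 5 neuroblast genes 1 was listed (ase, 31.6, 58.2 and 52.6 CPM in S1, S2 and S3). Of 4 glial, 3 hemocyte and 3 muscle genes 0 were listed. Of all protein-coding genes 35.5% were listed, and the authors' rule for listing is not known. Counts this small therefore do not show that glia, hemocytes or muscle cells were absent.

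The first question was how often Sd and Nerfin-1 occupied these recognition genes. Taking each peak for the gene the authors assigned it to, both proteins had a peak at 7 of the 32 genes. These were dpr4, dpr8, dpr12, dpr14, dpr18, DIP-alpha and DIP-delta. Sd alone had a peak at dpr1, dpr7 and dpr17, and Nerfin-1 alone at dpr2. The other 21 genes had neither. At dpr2 a Sd peak that the authors assigned to Tmem214 covered 78.6% of the Nerfin-1 peak, so there Nerfin-1 was alone by assignment only.

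In total 10 of the 32 genes had a Sd peak (31.2%), against 28.0% of all protein-coding genes. Nerfin-1 had a peak at 8 (25.0%), against 25.3%, and both had one at 7 (21.9%), against 20.9%. The shares of the families were thus near those of all genes. Among Dpr genes 8 of 21 had a Sd peak and 6 of 21 a Nerfin-1 peak. Among DIP genes 2 of 11 had a Sd peak and the same 2 had a Nerfin-1 peak.

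**Figure D1:**
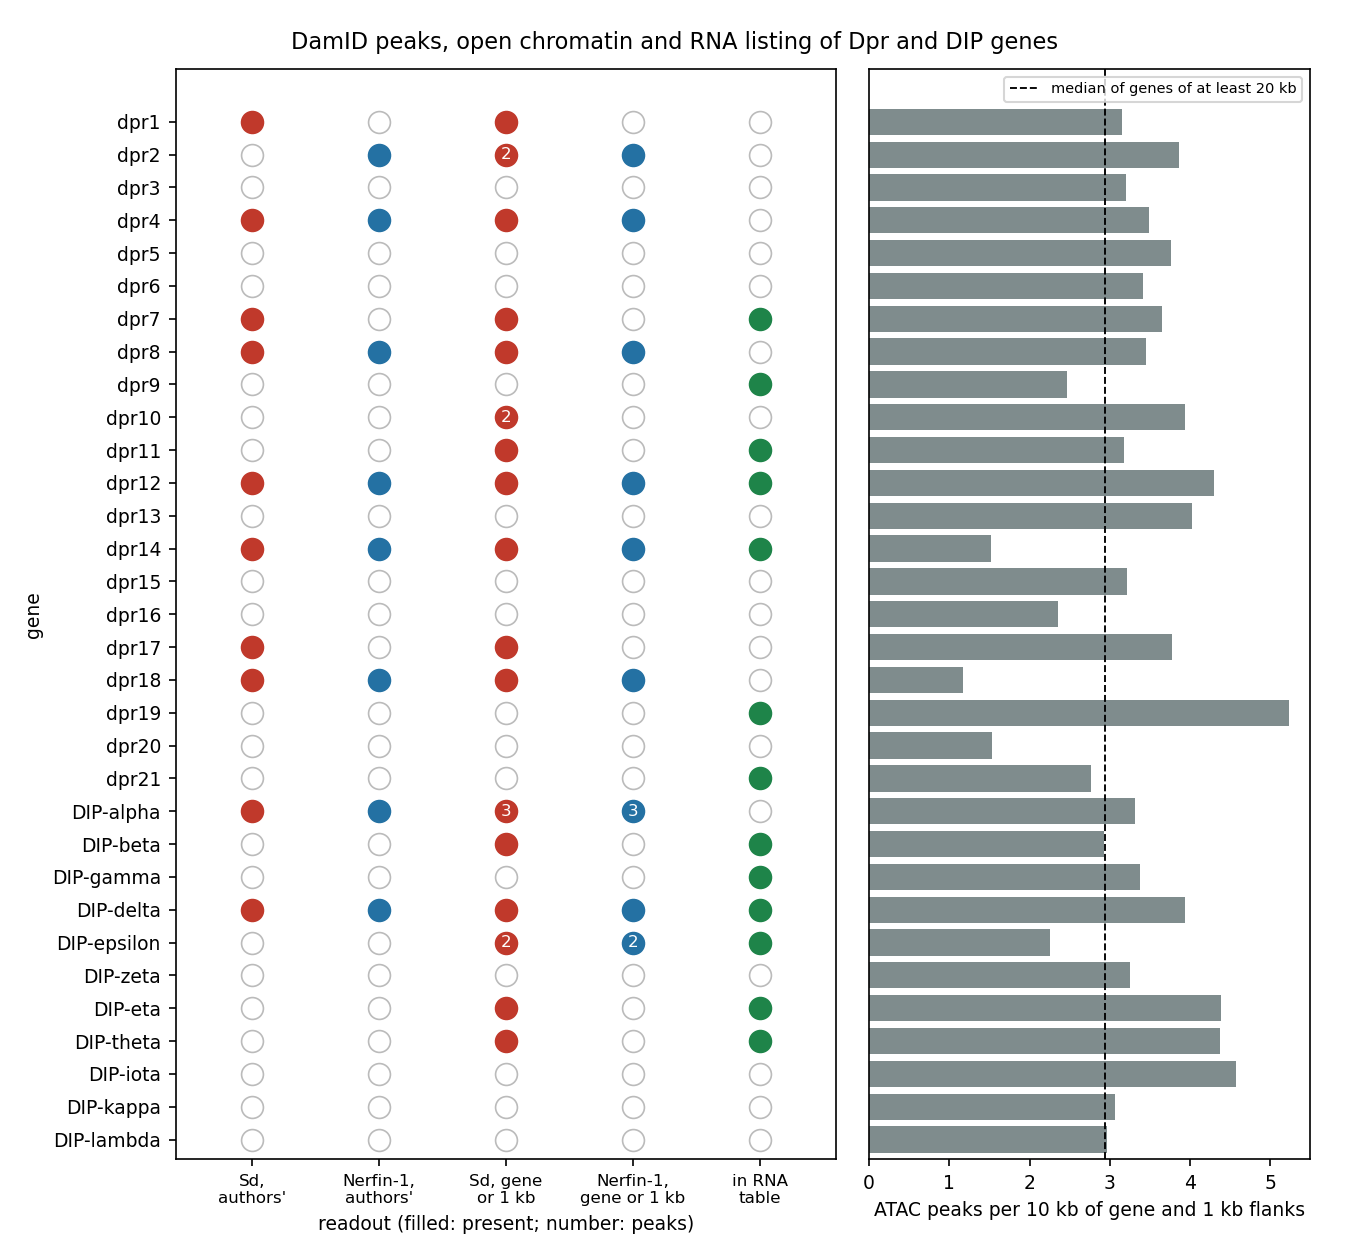
Left, presence of DamID peaks (Sd in red, Nerfin-1 in blue) and RNA listing (green) for each of the 32 genes, by the authors' assignment of peaks and by position in the gene or 1 kb on either side; a number gives the peaks where there were more than 1. Right, ATAC peaks per 10 kb of gene and flanks, with the median of protein-coding genes of at least 20 kb as a dashed line. Red and blue circles coincide in the second pair of columns at 9 genes, and every gene has open chromatin.

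Dpr and DIP genes are long. Their spans on the dm6 assembly ran from 3738 bp (dpr19) to 379081 bp (DIP-lambda), with a median of 32525.5 bp against 2163 bp for all protein-coding genes. A longer gene has more room for a peak, so genes of at least 20 kb were also taken apart. Of the 18 Dpr and DIP genes of that length, 4 had an assigned Sd peak (22.2%), against 52.6% of all 1012 protein-coding genes of at least 20 kb. Nerfin-1 had one at 4 of the 18 (22.2%), against 50.3%, and both at 3 (16.7%), against 44.4%. The shares of the long members were thus below those of long genes in general, as the plot of shares shows. Of the 14 shorter members 6 had Sd (42.9%), against 26.1% of genes under 20 kb. Nerfin-1 had a peak at 4 (28.6%), against 23.3%, and both at 4 (28.6%), against 19.1%. These members had a median length of 8017 bp, against 1980 bp for all genes under 20 kb. The comparison of shorter genes therefore does not allow for length.

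**Figure D2:**
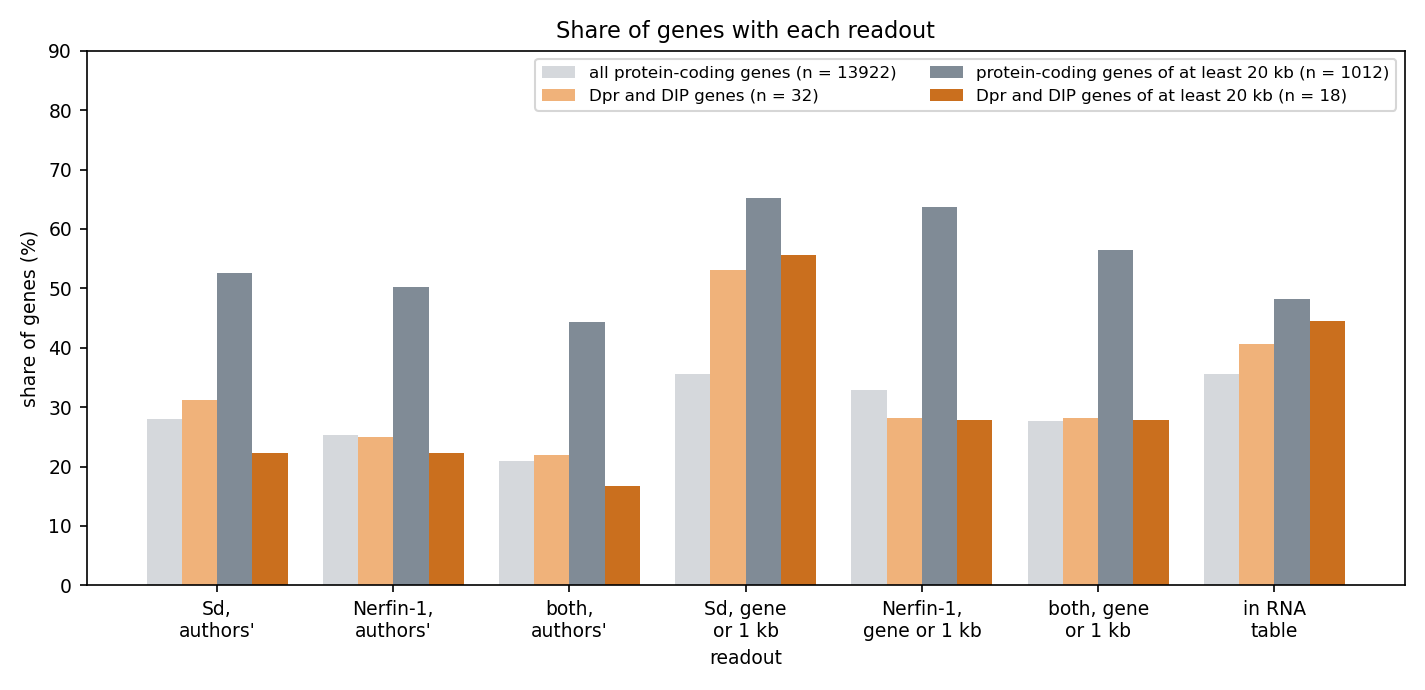
Share of genes (%) with each readout among all protein-coding genes, the 32 Dpr and DIP genes, all protein-coding genes of at least 20 kb and the 18 Dpr and DIP genes of that length. The 32 genes lie close to all protein-coding genes by the authors' assignment, while the 18 long ones lie below other long genes for Nerfin-1 by both rules.

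The count for Sd depended on how peaks were given to genes. When any peak within the gene or 1 kb on either side was counted, 17 of the 32 genes had a Sd peak (53.1%), against 35.6% of all genes. Nerfin-1 then had a peak at 9 (28.1%), against 32.9%, and both at the same 9 (28.1%), against 27.7%. Among long members the counts were 10 of 18 for Sd (55.6%, against 65.2% of long genes), 5 for Nerfin-1 (27.8%, against 63.7%) and 5 for both (27.8%, against 56.4%). The other 15 genes had no DamID peak by position.

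By position the families held 22 separate peaks of Sd and 12 of Nerfin-1. The authors assigned 12 of these 22 Sd peaks to other genes only, and 4 of the 12 Nerfin-1 peaks. Most of these lay inside a Dpr or DIP gene that holds smaller genes within its span, without touching the smaller gene. The 2 Sd peaks in dpr10 were given to CG8072 and CG6628, the Sd peak in dpr11 to CG2336 and that in DIP-beta to CG10918. Of the 32 genes 19 overlapped another annotated gene, so which transcription unit such a peak belongs to was not resolved by these lists.

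All 12 peaks of Nerfin-1 met one of Sd (100%, 95% Wilson interval 75.8 to 100), while 12 of the 22 of Sd met one of Nerfin-1 (54.5%, 34.7 to 73.1). Over the whole lists these shares were 75.2%, just under the lower bound, and 66.6%, inside the interval. The intervals cover counting error only. At 4 positions the boundaries were identical in both lists, at dpr8, at dpr18 and at both sites of DIP-epsilon. The design has 1 set of Dam-only samples for both proteins, so the lists may share controls.

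The occupied genes differed in where the peaks lay. At dpr8, an X-linked gene of 140126 bp, the only peak of either protein was the same interval of 1467 bp (X, 14320856 to 14322322). It covered the first 97 bp of the gene's lower-coordinate end and lay wholly in open chromatin. At dpr12, which encodes the partner of DIP-delta, the Sd peak (2R, 5802121 to 5805344) and the Nerfin-1 peak (2R, 5803390 to 5805344) also covered the lower-coordinate end and 740 bp of ATAC peak. At dpr14 both peaks covered the upper end, with 819 bp of the 924 bp Sd peak in open chromatin. At dpr4 the Sd peak of 2400 bp covered the upper end, and a Nerfin-1 peak of 277 bp lay inside it. Gene positions came without strand, so ends could not be named as starts.

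Other peaks were internal. DIP-alpha, the receptor for dpr6 and dpr10, had the most, with 3 peaks of each protein, of which 1 lay just beyond its upper end. The pair assigned to DIP-alpha itself lay 23.4 kb into the gene (Sd, X, 3530656 to 3532402) and overlapped 561 bp of ATAC peak. In DIP-delta a Sd peak (3L, 5426126 to 5428584) and a Nerfin-1 peak (3L, 5427045 to 5428584) lay 2.02 and 2.94 kb into the gene. Neither overlapped an ATAC peak. The shared peak of 855 bp inside dpr18 (X, 16065680 to 16066534) did not overlap one either. Sd alone occupied 602 bp inside dpr1 and 1020 bp inside dpr17, both outside open chromatin, and 443 bp at the upper end of dpr7 on chromosome 4, wholly inside it.

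**Figure D3:**
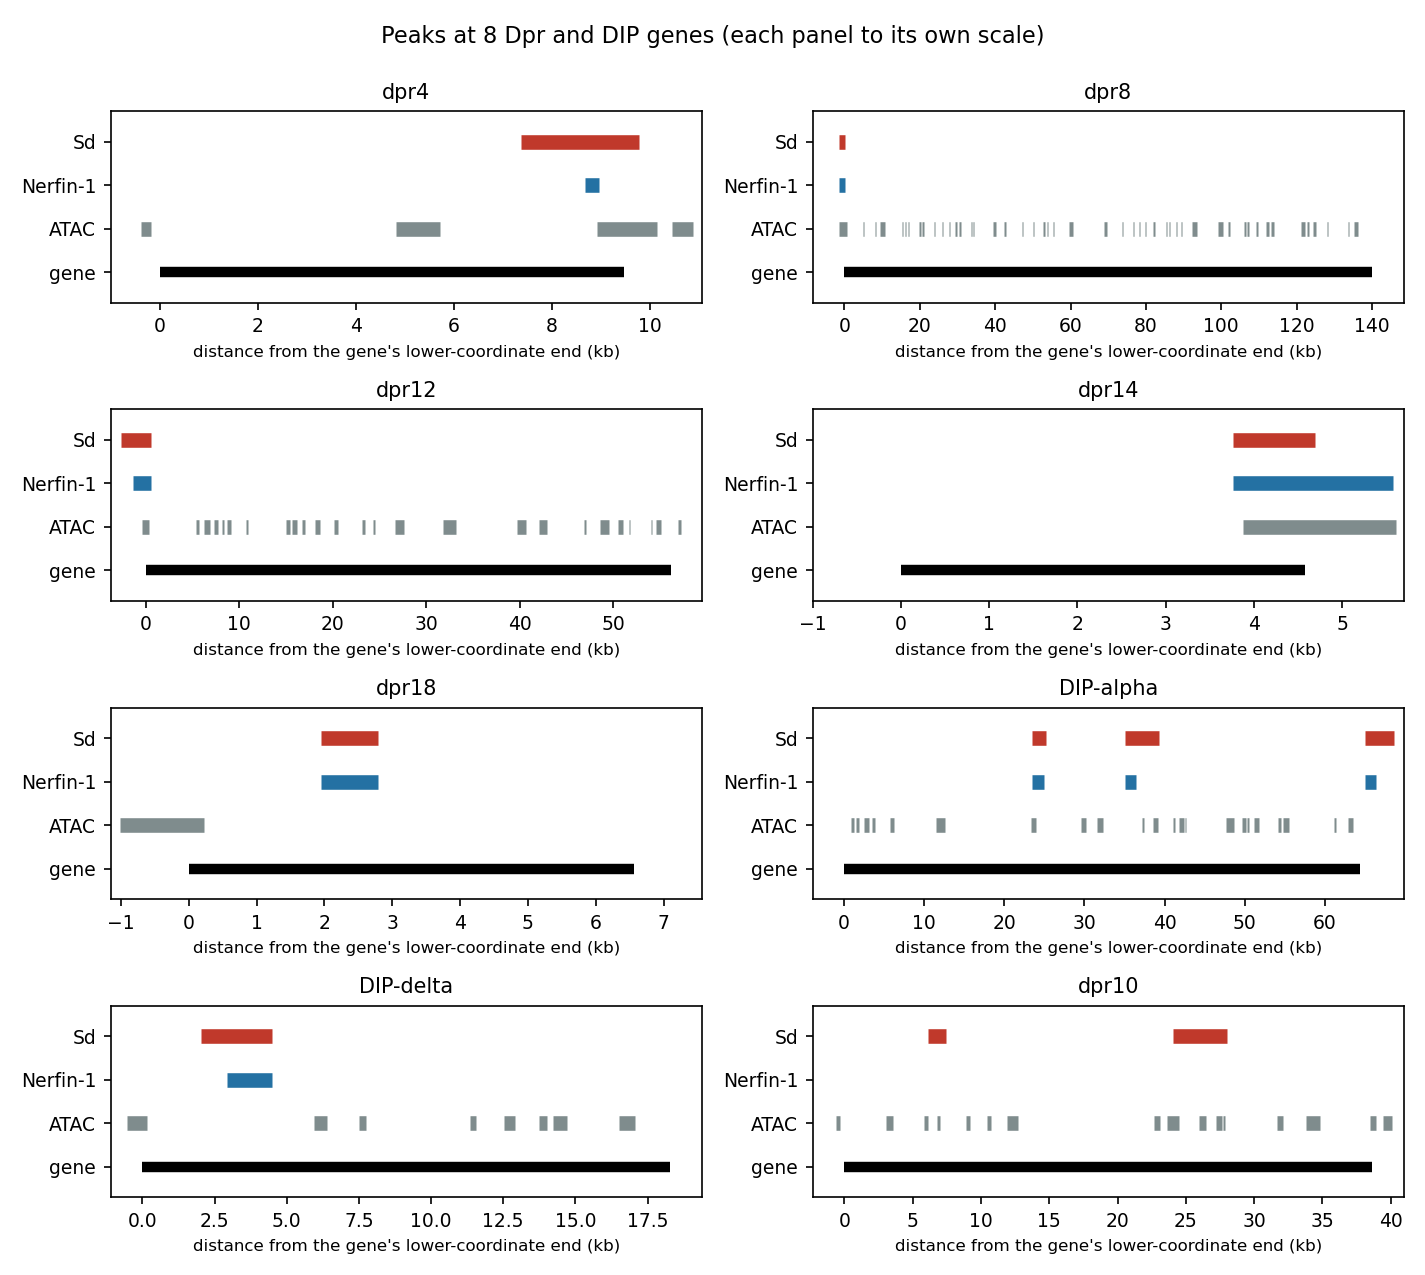
Sd (red), Nerfin-1 (blue) and ATAC (grey) peaks at the 7 genes with both DamID peaks by the authors' assignment and at dpr10, drawn against the gene (black) as distance in kb from its lower-coordinate end. Sd and Nerfin-1 intervals coincide at dpr8 and dpr18, and dpr10 has 2 Sd peaks and no Nerfin-1 peak.

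At dpr10 the Sd peaks (3L, 10153588 to 10154856 and 10171484 to 10175454) overlapped 6 ATAC peaks between them, and no Nerfin-1 peak was present. The neighbouring dpr6, 8093 bp away and with a product that binds the same receptor, had neither protein over 164710 bp. Its nearest DamID peak lay 14228 bp outside the gene. DIP-eta and DIP-theta, neighbours at 8344 bp, each had 1 internal Sd peak and no Nerfin-1 peak. DIP-epsilon had 2 shared peaks, 1 inside the gene (2L, 6390020 to 6390921) and 1 just beyond its upper end (2L, 6411502 to 6412672).

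The genes with no DamID peak by position were dpr3, dpr5, dpr6, dpr9, dpr13, dpr15, dpr16, dpr19, dpr20, dpr21, DIP-gamma, DIP-zeta, DIP-iota, DIP-kappa and DIP-lambda. The closest DamID peak to any of them was 1203 bp from dpr3. For dpr21 and DIP-lambda, on 2R, the nearest peaks were 749961 and 366092 bp away. DIP-lambda is the longest of the 32 genes and held 113 ATAC peaks.

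The next question was whether these genes were in open chromatin in the sorted cells. All 32 had at least 1 ATAC peak in the gene or its 1 kb flanks, against 83.2% of all protein-coding genes, and the number ran from 1 (dpr14, dpr18 and dpr20) to 113. Of genes of at least 20 kb 100.0% had one, as had 81.9% of shorter genes, so for the long members this count separates nothing. Per 10 kb, long members had a median of 3.26 ATAC peaks (range 2.25 to 4.38), against 2.95 for all genes of at least 20 kb. Shorter members had a median of 3.57, against 2.75 for all genes under 20 kb, whose median length was lower than that of these members. The density was lowest at dpr18 (1.17) and highest at dpr19 (5.23). ATAC peaks covered a median of 17.5% of the long members, against 15.7% of long genes.

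**Figure D4:**
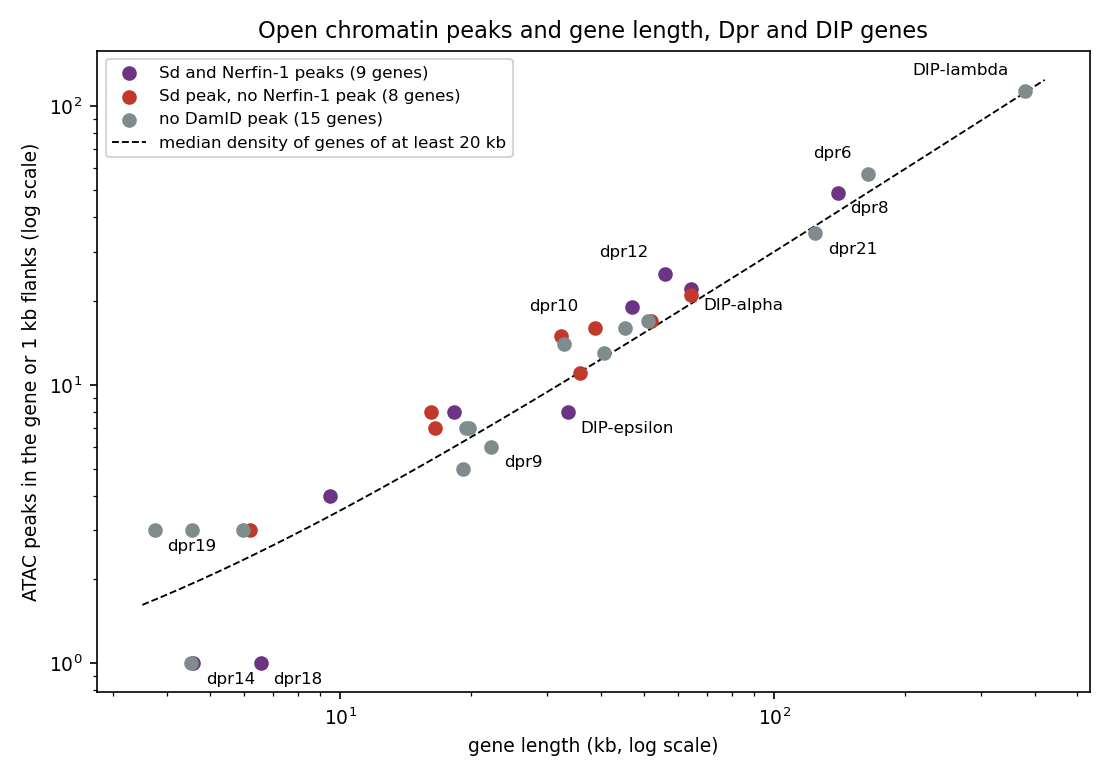
Number of ATAC peaks in the gene or its 1 kb flanks (log scale) against gene length in kb (log scale) for the 32 genes, coloured by DamID peaks by position. The dashed line is the median density of protein-coding genes of at least 20 kb. Counts rise with length to 113 at DIP-lambda, and genes with and without DamID peaks are found among short and long genes.

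Little of this open chromatin carried a DamID peak. Of 535 distinct ATAC peaks at the families, 20 overlapped a Sd or Nerfin-1 peak (3.74%, 95% Wilson interval 2.43 to 5.70), against 13.9% of all ATAC peaks and 9.08% of those at genes of at least 20 kb. Of the 20, 8 met both proteins, 11 Sd only and 1 Nerfin-1 only, and dpr10 alone held 6. The ATAC peak with Nerfin-1 only reached into the 1 kb flank of dpr3. No DamID peak lay closer to that gene than 1203 bp, so dpr3 counts as having none by position. Neighbouring peaks are not independent, so the interval is too narrow. DIP-lambda held 113 of the 535 ATAC peaks, dpr6 57 and dpr21 35, none of them with a DamID peak.

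This share moved with the position of the peaks. Within 5 kb of an end of some annotated gene lay 3902 of the 4064 Sd peaks and 95.7% of the Nerfin-1 peaks, against 61.1% of ATAC peaks. At the families 334 of the 535 ATAC peaks (62.4%) lay farther away, 317 of them at members of at least 20 kb. Of the 334, 4 overlapped a DamID peak (1.20%, 0.467 to 3.04), against 2.78% of all ATAC peaks so far from a gene end and 3.05% of those at long genes, so low shares were general there. Within 5 kb of a gene end, 16 of 201 did (7.96%, 4.96 to 12.5), against 20.9% of all ATAC peaks so placed and 17.6% of those at long genes. No source used here says whether the authors limited the DamID lists to such positions.

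Conversely, 15 of the 22 Sd peaks (68.2%, 47.3 to 83.6) and 9 of the 12 Nerfin-1 peaks (75.0%, 46.8 to 91.1) overlapped an ATAC peak. Over the whole lists these shares were 76.8% and 74.7%, inside both intervals. With at least 50% of a peak required to lie in open chromatin, the shares were 27.3% for Sd and 25.0% for Nerfin-1, against 37.4% and 39.0% of the whole lists. Measured by covered sequence, Sd peaks took up 1.28% of the long members and Nerfin-1 peaks 0.617%, against 3.54% and 2.89% of all long genes. Per 100 kb, the long members had 1.03 Sd and 0.548 Nerfin-1 peaks, against 2.03 and 1.84. These values pool the sequence of all long members, so the longest weigh most. DIP-lambda (379081 bp), dpr6 (164710 bp) and dpr21 (124513 bp) had no DamID peak, and values without them were not computed.

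The last question was which of these genes were expressed in the sorted nerfin-1 GFP cells. In all 13 of the 32 genes were listed as expressed (40.6%), against 35.5% of all protein-coding genes. Of the long members 8 of 18 were listed (44.4%), against 48.2% of long genes. Among Dpr genes 7 of 21 were listed (dpr7, dpr9, dpr11, dpr12, dpr14, dpr19 and dpr21). Among DIP genes 6 of 11 were (DIP-beta, DIP-gamma, DIP-delta, DIP-epsilon, DIP-eta and DIP-theta). The remaining 19 were not listed, a result that does not show absence, since the authors' rule for listing is not known. In a bulk sample, few cells with much of a transcript and many cells with little cannot be told apart.

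The counts behind the 13 genes ran from 1846 to 12544 reads per library. The levels below are not divided by transcript length, for which no exon positions were available, so they do not rank genes by numbers of transcripts. Most reads fell on dpr12, at 222, 210.4 and 218 CPM in S1, S2 and S3 (217 ± 5.80, SD, n = 3). The gene dpr7 followed at 212, 201 and 218 CPM (211 ± 8.67, SD, n = 3), and their ranges overlapped. Both lay above the other 11 genes in every library.

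Next came dpr19, at 92.7, 85.0 and 93.3 CPM (90.4 ± 4.62, SD, n = 3). From there to DIP-epsilon each gene's range over the libraries overlapped that of the next, so neighbours in this order were not separated. The lowest were DIP-delta, at 56.5, 55.3 and 56.8 CPM (56.2 ± 0.787, SD, n = 3), and dpr21, at 42.4, 50.4 and 58.6 CPM (50.5 ± 8.12, SD, n = 3). Last was DIP-epsilon, at 58.4, 42.7 and 38.9 CPM (46.7 ± 10.3, SD, n = 3). Of these, DIP-delta varied least between pools (coefficient of variation 1.40%) and DIP-epsilon most (22.1%), against a median of 5.93% over all listed genes.

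**Figure D5:**
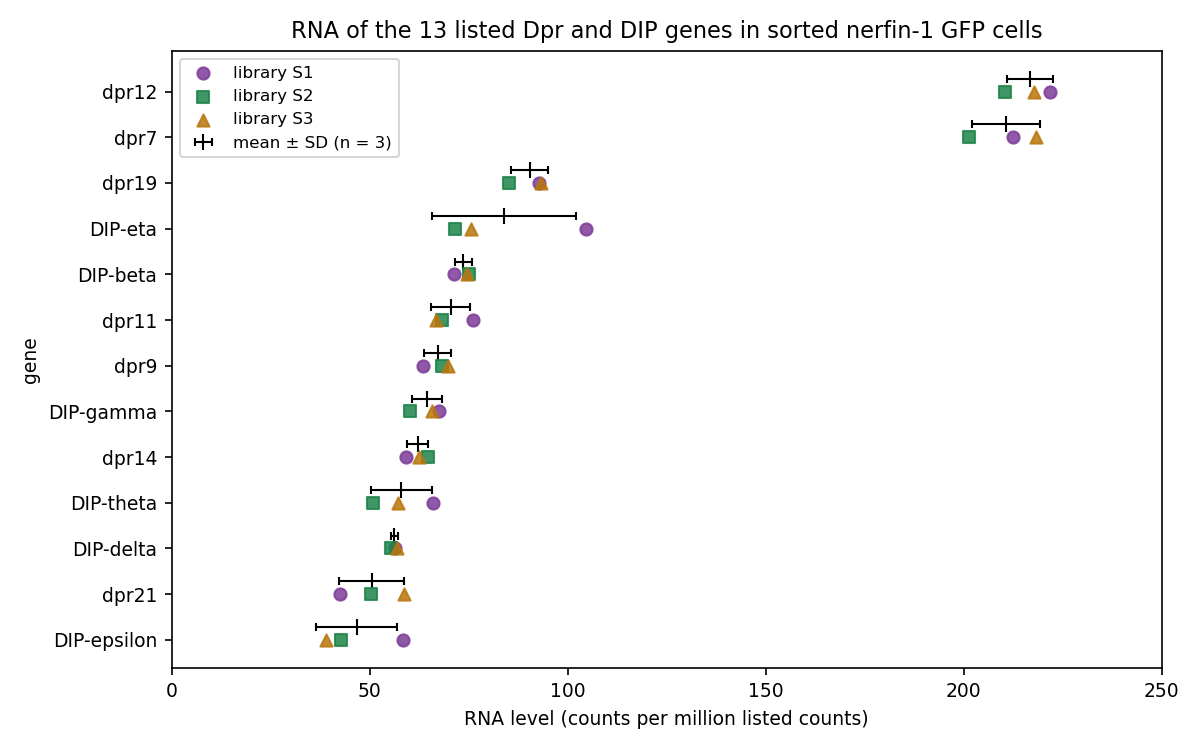
RNA level in CPM for the 13 listed genes in libraries S1 (circles), S2 (squares) and S3 (triangles), with the mean and SD of the 3 libraries drawn above each row of points. The genes dpr12 and dpr7 stand above 200 in every library, and DIP-eta and DIP-epsilon are highest in S1.

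Library S1 stood apart for several DIP genes. DIP-eta stood at 104.6, 71.4 and 75.5 CPM in the libraries in order (83.8 ± 18.1, SD, n = 3). DIP-theta stood at 66.0, 50.8 and 57.2 CPM (58.0 ± 7.63, SD, n = 3). With DIP-epsilon, these were 1.43-fold (DIP-eta), 1.22-fold (DIP-theta) and 1.43-fold (DIP-epsilon) higher in S1 than the geometric mean of S2 and S3. By contrast dpr21 stood at 0.780 of that mean. On the log2 scale, the 6 DIP genes had a median of 0.20 for S1 minus the mean of the others, with 5 above 0, and the 7 Dpr genes a median of 0.02, with 4 above 0. Over all listed genes the median was -0.08, with 23.5% above 0. TMM and median-ratio scaling raised all genes by the same amount, which put the Dpr median at 0.10, the DIP median at 0.28 and DIP-beta, at -0.07 before, at 0.01.

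Marker genes of neurons were split in S1. The neuronal factor nerfin-1, whose reporter was used for the sort, had 2486, 1952 and 1773 CPM, and brp, a protein of the presynaptic active zone, had 1504, 1273 and 1109.7 CPM. The RNA-binding protein gene fne was lowest in S1 (2200.1, 2547 and 2478 CPM), as was the neuroblast gene ase (31.6 CPM), while elav lay between the others (1748, 1786 and 1685 CPM). The synaptic vesicle gene nSyb (511, 447 and 469 CPM) and Syt1 (597, 589.7 and 569 CPM) were highest in S1. Their part in the values of the DIP genes was not tested. S1 is a single pool, so no test of it against the others was made.

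Receptors and ligands were then set side by side, using 32 DIP to Dpr pairings known from binding studies. Other pairings were not used, and dpr5, dpr7, DIP-kappa and DIP-lambda have no partner in this set. These pairings share members and are not independent. Both partners were listed in 6 pairings, only the DIP in 15, only the Dpr in 2 and neither in 9. By gene, 54.5% of DIP and 33.3% of Dpr genes were listed, and whether the pairing counts depart from these shares was not tested. DIP-eta and DIP-theta each enter the DIP-only count with the same unlisted dpr1 to dpr4. The 6 pairings with both listed were DIP-delta with dpr12, DIP-gamma with dpr11, DIP-beta with dpr9 and dpr21, and DIP-epsilon with dpr14 and dpr19.

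DIP-delta and dpr12, known for connecting mushroom body neurons to dopaminergic partners, were the only pairing in which both genes were listed and both carried assigned peaks of both proteins. By position, the listed pairing of DIP-epsilon and dpr14 also had peaks of both proteins at each gene. DIP-gamma and dpr11, which match photoreceptor R7 with its amacrine target in the medulla, were listed at 67.4, 60.2 and 65.7 CPM (64.5 ± 3.76, SD, n = 3) and 76.1, 68.3 and 66.8 CPM (70.4 ± 5.0, SD, n = 3). DIP-gamma had no DamID peak and dpr11 had an internal Sd peak. The other Dprs paired with DIP-gamma in this set (dpr15, dpr16 and dpr17) were not listed. The gene dpr16 overlaps cno, which was listed.

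DIP-beta was listed at 71.3, 75.1 and 74.6 CPM (73.6 ± 2.07, SD, n = 3), with its partner dpr21 given above and dpr9 at 63.3, 68.3 and 69.7 CPM (67.1 ± 3.34, SD, n = 3). The remaining partner of DIP-beta in this set, dpr8, was not listed. DIP-epsilon had dpr19, given above, and dpr14 at 59.2, 64.6 and 62.4 CPM (62.1 ± 2.75, SD, n = 3), while dpr13, dpr18 and dpr20 were not listed. DIP-alpha and both of its ligands in this set, dpr6 and dpr10, were not listed, although DIP-alpha and dpr10 carried DamID peaks. DIP-eta and DIP-theta were listed, while dpr1 to dpr4, which they bind, were not. DIP-iota and DIP-zeta, which share partners with these receptors, were not listed, nor were DIP-kappa and DIP-lambda.

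Occupancy and listing were compared gene by gene. With the authors' assignment, 3 of the 7 genes with both peaks were listed (dpr12, dpr14 and DIP-delta), as were 1 of 3 with Sd only (dpr7), 0 of 1 with Nerfin-1 only and 9 of 21 with neither. Over all protein-coding genes the listed shares were 61.5% with both, 47.6% with Sd only, 39.2% with Nerfin-1 only and 25.9% with neither. Among genes of at least 20 kb they were 69.3%, 55.4%, 21.7% and 28.1% in the same order. By position, 4 of 9 with both, 5 of 8 with Sd only and 4 of 15 with neither were listed, against 58.8%, 47.6% and 23.0% of all protein-coding genes. The 4 listed genes with no DamID peak by either rule were dpr9, dpr19, dpr21 and DIP-gamma. No test was made on these counts.

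For context, 20 other adhesion and recognition genes were counted in the same way. Both proteins had assigned peaks at 13 of them and Sd alone at 3, and 15 were listed as expressed. Of all protein-coding genes, 20.9% had both assigned peaks and 35.5% were listed. Among those of at least 20 kb the shares were 44.4% and 48.2%. The 20 genes had a median length of 41998.5 bp. Most reads fell on Nrt (1549 ± 30.3 CPM, SD, n = 3), a transmembrane adhesion protein, then on Dscam1 (989 ± 80.0 CPM), a homophilic immunoglobulin receptor, and on the immunoglobulin protein tutl (696 ± 63.5 CPM; SD, n = 3 for each). The cell adhesion gene Nrg, the leucine-rich repeat receptors Tl and Toll-6, and the immunoglobulin gene hbs had no assigned peak, but hbs carries an identifier newer than the files and could not be looked up by it. By position Nrg had 1 peak of each protein and the other 3 had 0. The list was chosen by hand, and its difference from the Dpr and DIP genes was not tested.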

How the data were processed

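Reads were processed on dm6 with Bowtie2, Subread, featureCounts, MACS2, bedtools and edgeR, per the submitters' processing notes, which give no roles or settings. The RNA table as deposited by the authors gives unnormalized counts of reads for each gene, and 0 columns were left unmapped. Its library names match no replicate number, and nothing says that the pools came from separate animals. The authors' deposited peak lists give positions only, so read depth behind the peaks is unknown.

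Gene spans came from RefSeq (Release 6 plus ISO1 MT), without strand, exons or sequence, so the planned motif counts, protein comparison and levels per length were not made. FlyBase identifiers were joined by symbol, and 298 protein-coding genes have none or a newer one than the files and count as not listed and not assigned. Overlap meant at least 1 bp, flanks were 1 kb, and a long gene had at least 20 kb. Counts were divided by the listed total (CPM). TMM sizes (edgeR 4.0.16) and median-ratio factors (DESeq2 1.42.0) were alternatives, run in R 4.3.3 and Python 3.11.15 with Wilson intervals from scipy 1.17.1. No test of differential expression was possible with 1 group. Overlap functions were checked on simulated intervals.

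All 32 genes were named by rule: in full those with both peaks and listed RNA, the 3 with most and fewest reads, those with no peak and partners of listed DIP genes. Members, lists and rules were chosen with earlier results of these data known.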

Additional observations from a re-analysis of the deposited data

How the results depend on the processing

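The number of the 32 genes with a Sd peak, 10 by the authors' assignment (31.2%, against 28.0% of all protein-coding genes), was 17 (53.1%) by position in the gene (all genes 27.5%), with 1 kb flanks (35.6%), or with 1 kb flanks and no peak over another gene (13.4%). It was 18 with flanks of 5 kb (56.2%, against 56.8%) and 5 with the longer 50% of peaks (15.6%, against 15.0%). These shares of all genes were not matched for length. With 1 kb flanks, 55.6% of the members of at least 20 kb had a Sd peak, against 65.2% of long genes. The rule leaving out peaks over another gene was not repeated for long genes, so its 13.4% does not allow for length. The number with both proteins, 7 (21.9%, against 20.9%), was 11 with flanks of 5 kb (34.4%, against 46.9%) and 4 with the longer 50% of peaks (12.5%, against 10.4%). With at least 50% of a peak covered, 27.3% (Sd) and 25.0% (Nerfin-1) of the peaks at these genes lay in open chromatin, against 37.4% and 39.0% of the whole lists. The share of ATAC peaks with a DamID peak was 7.96% within 5 kb of a gene end. The number with a Nerfin-1 peak, 8 (25.0%, against 25.3%), was 12 with flanks of 5 kb (37.5%, against 53.2%). It was 6 with the longer 50% of peaks (18.8%, against 13.4%). With 1 kb flanks it was 9 (28.1%, against 32.9%), and 7 with no peak over another gene (21.9%, against 12.5%). This count stayed within 1.5 times, but whether it lay above or below the share of all genes, not matched for length, changed with the rule. The counts with an ATAC peak (32) and listed as expressed (13) did not change under their alternatives. The shares of peaks shared between the lists stayed inside their Wilson intervals. The 65 alternative RNA levels (both scalings, and leaving out each library) were 0.874 to 1.08 times the reported means. Leaving out 1 of 3 libraries cannot move a mean by a whole SD, so this range shows no stability. The 2 alternatives on overlapping ATAC peaks and the one leaving out peaks over another gene were chosen after seeing the data. No paired analysis was possible because the peak lists hold no replicate values and the RNA has 1 group.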
